A study of Mus musculus with 24 samples.

Results

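The core circadian clock genes were examined in mouse liver together with noncoding entries that lie on the opposite strand of a pair of them. The 10 entries, of 24421 in the gene count table, were chosen by symbol: Arntl, Dbp, Per1, Per2, Nr1d1, Ciart, Cry2, D930015M05Rik, Bhlhe40 and 0610040F04Rik. RNA sequencing covered livers of C57Bl/6J males in 24 libraries, 3 in each of 8 groups. At 12 months the groups were m12_WD+VC (Western diet with 42% fat, inhaled vinyl chloride), m12_WD (Western diet, air), m12_CD+VC (control diet with 13% fat, vinyl chloride) and m12_CD (control diet, air). At 12 weeks they were w12_WD+VC, w12_WD, w12_CD+VC and w12_CD, with the same diets and inhalations. Vinyl chloride (VC), an industrial gas that the liver metabolises, was inhaled at 0.85 ± 0.1 ppm in sessions of 6 hours, 5 times weekly, through 12 weeks. The w12 mice were killed when exposure ended, and the m12 mice after 9 further months on their diets without VC. All mice were fasted for 4 hours. The labels give neither the hour at which livers were taken nor the age of the mice.

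The liver clock is a transcriptional loop. ARNTL (also called BMAL1) and CLOCK bind E-box motifs and activate the Per, Cry, Nr1d1, Dbp and Ciart genes. PER and CRY proteins repress that activity, and NR1D1 represses Arntl through ROR response elements. In liver these transcripts oscillate with the time of day and respond to feeding, Arntl out of phase with Dbp, Nr1d1 and the Per genes. D930015M05Rik and 0610040F04Rik are annotated as noncoding, and no role is given to them here.

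Promoter windows from RefSeq (GRCm38.p6 build, 250 bases before and 50 bases after a start site) were held for 8 of the 10 entries, in 11 windows. None was held for Per2 or Bhlhe40. Each window was searched on both strands for the E-box CACGTG, its variant CACGTT, the D-box TTATGTAA that DBP binds, and the ROR element that NR1D1 and ROR proteins share (AA, any base, then TAGGTCA). Of 32851 promoter windows of the same length, 7.15% held CACGTG, 4.68% held CACGTT, 0.938% held the D-box and 0.219% held the ROR element. The stretches below are shown because they hold motifs of the loop or, for D930015M05Rik, because it lies opposite Cry2 and its level differed between groups. Capitals mark motif matches, and each stretch reads 5′ to 3′ on the strand of its gene.

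The Ciart stretch is chr3:95882229-95882478 on the minus strand, the 250 bases before the start.
Ciart: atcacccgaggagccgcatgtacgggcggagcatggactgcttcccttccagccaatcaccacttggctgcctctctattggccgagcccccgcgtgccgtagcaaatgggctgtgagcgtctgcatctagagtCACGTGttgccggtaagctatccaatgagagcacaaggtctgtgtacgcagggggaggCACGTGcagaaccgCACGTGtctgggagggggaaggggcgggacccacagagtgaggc
The Nr1d1 stretch is chr11:98775378-98775627 on the minus strand, the 250 bases before the start.
Nr1d1: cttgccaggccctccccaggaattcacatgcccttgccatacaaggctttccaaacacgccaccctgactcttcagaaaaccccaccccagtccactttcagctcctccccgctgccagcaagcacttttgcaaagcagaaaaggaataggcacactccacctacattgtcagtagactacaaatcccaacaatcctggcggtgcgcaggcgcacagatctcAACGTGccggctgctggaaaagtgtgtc
The Arntl stretch is chr7:113207528-113207557 on the plus strand, 30 bases around a match after the start of the second window.
Arntl: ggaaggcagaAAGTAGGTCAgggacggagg
The D930015M05Rik stretch is chr2:92408642-92408891 on the plus strand, the 250 bases before the start.
D930015M05Rik: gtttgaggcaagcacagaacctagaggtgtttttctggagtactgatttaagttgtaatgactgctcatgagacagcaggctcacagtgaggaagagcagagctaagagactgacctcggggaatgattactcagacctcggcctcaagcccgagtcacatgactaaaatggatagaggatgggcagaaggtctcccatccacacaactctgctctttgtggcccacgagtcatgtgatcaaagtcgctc

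Ciart held 3 E-boxes, whose first bases lie 116, 58 and 44 bases before its start. Nr1d1 held the CACGTT variant on the other strand, 28 bases before its start. Arntl held a ROR element from base 28 of its second window's transcript. Per1 held 1 E-box 166 bases before the start of its first window, and Cry2 held the CACGTT variant on the other strand 166 bases before its start. These letters were not found in the windows of Dbp, D930015M05Rik and 0610040F04Rik. In all, 5 of the 11 windows held a match, which describes the sequence and not a bound site. The share of all promoter windows that held any of these motifs was not counted.

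Most of the entries share exon sequence with a gene on the other strand in the GENCODE M21 annotation of GRCm38. Bhlhe40, which encodes a repressor at E-boxes, lies on chromosome 6 at 108660629 to 108666925 on the plus strand. 0610040F04Rik lies at 108577039 to 108660934 on the minus strand, annotated as antisense, and shares 118 exon bases with it. Cry2, which encodes a repressor of ARNTL and CLOCK, lies on chromosome 2 at 92403646 to 92434043 on the minus strand. D930015M05Rik lies within that span at 92408892 to 92432308 on the plus strand, annotated as a processed transcript, and shares 295 exon bases with Cry2. Dbp, which encodes an activator at D-boxes, shares 539 exon bases with the sphingosine kinase gene Sphk2. Nr1d1, which encodes the repressor REV-ERBα, shares 263 with the thyroid hormone receptor gene Thra. Arntl shares 33 with Gm45355, for which no value is given, and Per1, Per2 and Ciart share none. No source used here states whether the counting used strand, and the kit as named does not mark it, so reads of a gene and of its partner cannot be told apart where exons overlap.

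**Figure D1:**
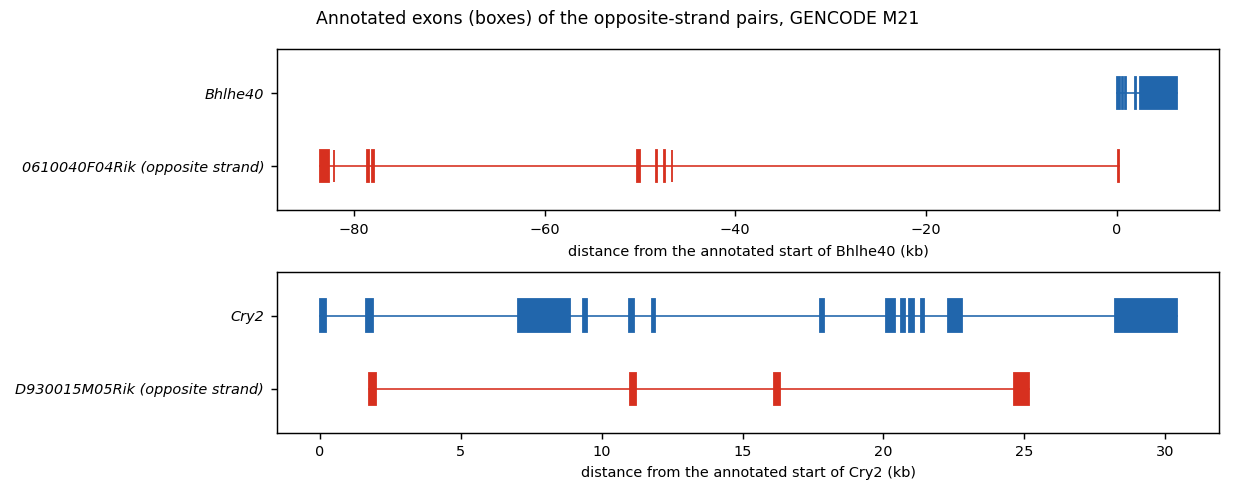
Annotated exons (boxes) and introns (lines) of Bhlhe40 with 0610040F04Rik (top) and of Cry2 with D930015M05Rik (bottom), on an axis of distance in kb from the annotated start of the coding gene. The first pair meets only at the start of Bhlhe40, where 118 exon bases are shared, and D930015M05Rik lies inside the span of Cry2, with 295 exon bases shared.

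Library totals were 126160 to 962493 counts in 23 libraries, and the third w12_WD library held 607. That library stayed in the tests but is left out of all levels, so w12_WD levels have n = 2. Levels are in CPM, each count divided by the TMM-scaled total of the tested genes. A count of 3, taken as the floor, stood for 3.09 to 25.5 CPM in a library, for counting error only. Nothing in the labels ties each library to its own animal, and the p-values therefore cover the spread among libraries, which may be technical. Hepatocyte markers summed to 4800 to 34355 CPM over 10 genes in these 23 libraries, with Ass1 at 0 in every group. In bulk RNA, fewer cells of a type and less RNA per cell cannot be told apart.

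The entries spanned a wide range of levels, and 6 of the 10 passed the expression filter. Arntl, Per1, Ciart and Cry2 did not pass it. Per kb of exon, the median level was 517 CPM for 0610040F04Rik and 255 CPM for D930015M05Rik, the highest of the 10. On the same scale of CPM per kb, the median was 47.7 for Nr1d1, 37.0 for Dbp, 13.0 for Per2 and 7.02 for Bhlhe40. It was 1.39 for Cry2, 1.32 for Ciart, 1.06 for Per1 and 0 for Arntl. Because the strand setting of the counting is unknown, these values do not rank the transcripts of an overlapping pair by abundance. The highest library exceeded the lowest 24.4-fold for Per2, 5.96-fold for D930015M05Rik, 4.02-fold for 0610040F04Rik, 2.95-fold for Dbp and 2.18-fold for Nr1d1. No ratio is given for Bhlhe40, whose lowest library held 2 counts, under the floor.

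Per2, D930015M05Rik and 0610040F04Rik differed among the 8 groups by edgeR's quasi-likelihood test, with adjusted p = 0.000515, 0.0123 and 0.0168 in that order. These were 3 of the 6 tested, where 29.7% of all 4198 tested genes passed. Dbp, Nr1d1 and Bhlhe40 did not pass (edgeR adjusted p = 0.418, 0.402 and 0.284). Each of the 3 that passed had its lowest group mean in m12_WD livers. D930015M05Rik lost this call with DESeq2 (adjusted p = 0.100).

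Per2 encodes a period protein of the repressing arm. At 12 months its levels were 126, 19.5 and 73.8 CPM in m12_WD+VC, 22.7, 32.1 and 7.22 CPM in m12_WD, 77.4, 59.1 and 47.4 CPM in m12_CD+VC and 105, 95.1 and 41.5 CPM in m12_CD livers. At 12 weeks they were 55.8, 54.5 and 54.5 CPM in w12_WD+VC, 145 and 153 CPM in w12_WD, 155, 149.6 and 156 CPM in w12_CD+VC and 115, 176 and 75.9 CPM in w12_CD livers. All 3 m12_WD libraries lay below every library of the other groups except 1 of m12_WD+VC. By mean the order ran from w12_CD+VC (154 CPM) through w12_WD (149), w12_CD (122), m12_CD (80.6), m12_WD+VC (73.2), m12_CD+VC (61.3) and w12_WD+VC (54.9) to m12_WD (20.7). Neighbours in that order overlapped, except that w12_WD+VC and m12_WD stood apart.

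D930015M05Rik, on the other strand of Cry2, was at 304, 225 and 289.9 CPM in m12_WD+VC, 155, 115 and 206 CPM in m12_WD, 227, 155 and 279 CPM in m12_CD+VC and 377, 271 and 303 CPM in m12_CD livers. At 12 weeks it was at 408, 344 and 368 CPM in w12_WD+VC, 360.1 and 535 CPM in w12_WD, 400.0, 323 and 269.6 CPM in w12_CD+VC and 367, 249.7 and 683 CPM in w12_CD livers. The m12_WD libraries lay below all m12_WD+VC, m12_CD and w12 libraries, and overlapped with m12_CD+VC. Its group means ran from 159 CPM in m12_WD to 448 CPM in w12_WD, and all neighbours in that order overlapped.

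0610040F04Rik, on the other strand of Bhlhe40, was at 749.9, 795 and 949 CPM in m12_WD+VC, 628, 516 and 778 CPM in m12_WD, 622, 989 and 2072 CPM in m12_CD+VC and 1310, 1823 and 1575 CPM in m12_CD livers. At 12 weeks it was at 1204, 1476 and 1111 CPM in w12_WD+VC, 1756 and 1878 CPM in w12_WD, 1843, 961 and 1957 CPM in w12_CD+VC and 892, 829.9 and 1496 CPM in w12_CD livers. The m12_WD libraries were below all m12_CD and all w12 libraries, and overlapped with both VC groups of 12 months. At 12 weeks the order of the air groups was the other way round, with both w12_WD libraries above the 3 w12_CD libraries. Neighbouring groups by mean overlapped.

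**Figure D2:**
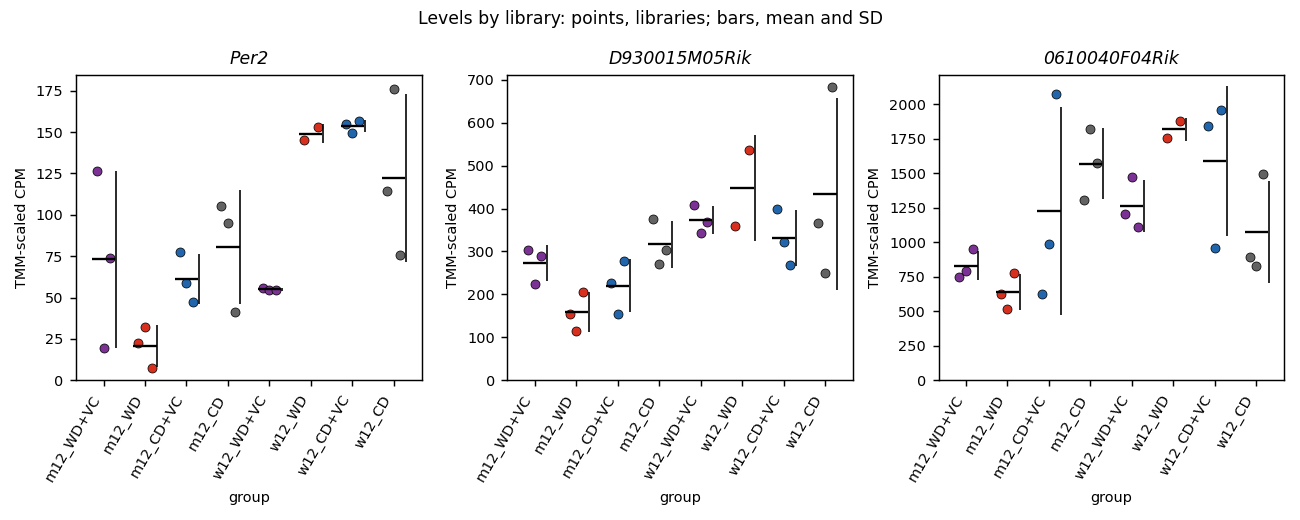
Levels of Per2, D930015M05Rik and 0610040F04Rik in TMM-scaled CPM (vertical axis) in the 8 groups (horizontal axis). Points are libraries, horizontal bars means and vertical bars SD, with n = 3, and n = 2 for w12_WD. The m12_WD group has the lowest mean in each panel, at 20.7, 159 and 641 CPM.

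On Western diet without VC, 3 of the 6 tested entries were lower at 12 months than on control diet. Per2 averaged 20.7 ± 12.6 CPM in m12_WD and 80.6 ± 34.2 CPM in m12_CD livers (SD, n = 3 each), 4.14-fold lower in m12_WD. Its log2 fold change was -2.05 (95% interval -3.04 to -1.06, edgeR adjusted p = 0.00357). 0610040F04Rik averaged 641 ± 132 CPM in m12_WD and 1569 ± 257 CPM in m12_CD livers, with a log2 fold change of -1.29 (95% interval -1.95 to -0.63, edgeR adjusted p = 0.00561). D930015M05Rik averaged 159 ± 45.9 CPM in m12_WD and 317 ± 54.3 CPM in m12_CD livers, with a log2 fold change of -0.98 (95% interval -1.61 to -0.35, edgeR adjusted p = 0.0253). In each of the 3 the groups did not overlap. The share of all tested genes whose groups did not overlap was not counted, here or in any other comparison. A lack of overlap is therefore given throughout only as a description of levels. Of all tested genes 24.5% passed in this comparison and 11.1% passed downward. The median log2 fold change of the 6 entries was -0.60, against 0.11 over all tested genes. Over all genes 1028 genes passed, against 645 without the first m12_CD library and 610 with the compared groups alone.

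Dbp, Nr1d1 and Bhlhe40 did not pass in the same comparison. Dbp had a log2 fold change of -0.12 (95% interval -0.76 to 0.52, edgeR adjusted p = 0.830) and Bhlhe40 one of 0.28 (95% interval -0.81 to 1.37, edgeR adjusted p = 0.754). For Nr1d1 all 3 m12_WD libraries, at 153, 147 and 178 CPM, lay below the m12_CD libraries at 184, 185 and 192 CPM. The log2 fold change of Nr1d1 was -0.23 (95% interval -0.79 to 0.34, edgeR adjusted p = 0.603).

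The 3 calls differed in how far they rested on single choices. That of 0610040F04Rik held in all 15 alternative analyses. Per2 lost its call with DESeq2 (adjusted p = 0.0760). D930015M05Rik lost its call with median-of-ratios scaling (edgeR adjusted p = 0.121), without an expression filter (0.0549), and with DESeq2 (0.263). It also lost it without the first m12_CD (0.0775), the first m12_WD (0.0511) or the second m12_WD library (0.0974). Median-of-ratios factors, like those of DESeq2, use only genes above 0 in every library. The third w12_WD library, kept in those fits, had 307 genes above 0. Neither method was run without that library, and its part in the lost calls was not tested. Median-of-ratios scaling moved the all-gene median by 0.39 on the log2 scale, and calls over all genes became 915 higher and 253 lower, against 562 and 466 under TMM. Relative to the median of all genes, Per2 stood at -2.13 with that scaling and -2.16 under TMM, 0610040F04Rik at -1.41 and -1.40, and D930015M05Rik at -1.08 and -1.09.

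Markers of other cell types moved with the same comparison, in which 24.5% of all 4198 tested genes passed and 562 passed upward. Summed macrophage markers (10 genes in the table, 8 tested, 5 higher and 0 lower) were at 544 to 736 CPM in m12_WD and 96.4 to 153 CPM in m12_CD livers. Stellate cell and fibroblast markers (7 genes in the table, 2 tested, 2 higher and 0 lower) were at 144 to 163 CPM in m12_WD and 0 to 29.3 CPM in m12_CD livers, where Col1a1 and Lrat were at 0. Cholangiocyte markers (5 genes in the table, 1 tested, 1 higher and 0 lower) were at 83.2 to 202 CPM in m12_WD and 0 to 12.8 CPM in m12_CD livers, where Krt7, Epcam and Sox9 were at 0. The summed levels of these marker groups were thus higher in m12_WD livers, without overlap. The cholangiocyte sum in m12_WD was mostly Spp1, the 1 tested, at a mean of 127 ± 61.9 CPM of 148 CPM. Spp1 averaged 2.94 ± 3.22 CPM in m12_CD livers. Endothelial markers (6 genes in the table, 1 tested, 1 higher and 0 lower) were at 104 to 154 CPM in m12_WD and 28.7 to 48.2 CPM in m12_CD livers. Lymphocyte markers (5 genes in the table, 0 tested, 0 higher and 0 lower) were at 0 to 14.4 CPM in m12_WD and 0 to 4.88 CPM in m12_CD livers, with 3 of the 5 at 0 in m12_WD and 4 of the 5 in m12_CD. Hepatocyte markers (10 genes in the table, 9 tested, 3 higher and 0 lower) were at 11489 to 24219 CPM in m12_WD and 4800 to 12424 CPM in m12_CD livers. The part of these shifts in the 3 calls was not tested.

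Genes without an overlap on the other strand were 18199 of the 24421 entries in the table, and 5794 entries had one. Those without one took 25.9 ± 3.89% of counts in m12_WD and 15.6 ± 3.56% in m12_CD libraries. Their median log2 fold change was 0.47, against -0.16 for genes with an overlap. Per2 belongs to the class without an overlap, and D930015M05Rik and 0610040F04Rik to the class with one. The 3 calls held when each class was scaled on its own. What the small share of counts in the larger class means for Per1, Per2 and Ciart, which belong to it, was not tested.

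The same 3 entries were lower at 12 months than at 12 weeks on Western diet without VC, a comparison that shares its m12_WD libraries with the diet comparison. Per2 was at 20.7 ± 12.6 CPM in m12_WD (n = 3) and 149 ± 5.59 CPM in w12_WD livers (n = 2), 7.51-fold lower in m12_WD. Its log2 fold change was -2.91 (95% interval -3.96 to -1.85, edgeR adjusted p = 0.000370). D930015M05Rik was at 159 ± 45.9 CPM in m12_WD and 448 ± 124 CPM in w12_WD livers, with a log2 fold change of -1.40 (95% interval -2.10 to -0.71, edgeR adjusted p = 0.00745). 0610040F04Rik was at 641 ± 132 CPM in m12_WD and 1817 ± 86.1 CPM in w12_WD livers, with a log2 fold change of -1.39 (95% interval -2.09 to -0.69, edgeR adjusted p = 0.00843). No m12_WD library overlapped with w12_WD in these 3, and how many of all tested genes separate in this way was not counted. Of all tested genes 14.6% passed here and 6.86% passed downward, and the median log2 fold change was -0.82 for the 6 entries and 0.21 for all genes. Dbp had a log2 fold change of 0.37, Nr1d1 of 0.55 and Bhlhe40 of -0.25, none past the threshold (edgeR adjusted p = 0.568, 0.309 and 0.850).

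Without the second w12_WD library D930015M05Rik no longer passed (edgeR adjusted p = 0.146), and 0610040F04Rik no longer passed without the first (0.0617) or the second (0.0861). Per2 kept its call in all 14 alternatives, which count the fit without the third w12_WD library also as the fit without the shallowest library. Over all genes 613 genes passed, against 176 without the second w12_WD library and 351 with DESeq2. Summed macrophage markers were at 544 to 736 CPM in m12_WD and 68.0 to 119 CPM in w12_WD livers, with Lyz2 at 0 in w12_WD. Stellate markers were at 144 to 163 CPM in m12_WD and 17.0 to 38.9 CPM in w12_WD livers, with Des and Acta2 at 0 in w12_WD. Cholangiocyte markers were at 83.2 to 202 CPM in m12_WD and 8.50 to 10.4 CPM in w12_WD livers, with Krt19, Krt7 and Epcam at 0 in w12_WD. The cholangiocyte sum in m12_WD was mostly Spp1, at a mean of 127 CPM of 148 CPM. The macrophage, stellate and cholangiocyte sums did not overlap between the groups. Endothelial markers were at 104 to 154 CPM in m12_WD and 25.5 to 57.0 CPM in w12_WD livers, and hepatocyte markers at 11489 to 24219 CPM in m12_WD and 5404 to 11133 CPM in w12_WD livers, also without overlap. Lymphocyte markers were at 0 to 14.4 CPM in m12_WD and 5.18 to 8.50 CPM in w12_WD livers, which overlapped. In this comparison 325 of all 4198 tested genes passed upward. Of the tested markers 5 of 8 macrophage, 0 of 2 stellate, 1 of 1 cholangiocyte, 0 of 1 endothelial and 5 of 9 hepatocyte markers passed, all higher in m12_WD. Their part in these results was not tested.

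On control diet without VC, where 1.62% of all genes passed, 0 of the 6 entries passed between 12 months and 12 weeks by edgeR. Per2 was at 80.6 ± 34.2 CPM in m12_CD and 122 ± 50.6 CPM in w12_CD livers, a log2 fold change of -0.60 (95% interval -1.50 to 0.29, edgeR adjusted p = 0.574). 0610040F04Rik was at 1569 ± 257 CPM in m12_CD and 1073 ± 368 CPM in w12_CD livers, a log2 fold change of 0.55 (95% interval -0.10 to 1.20, edgeR adjusted p = 0.462). Both pairs of groups overlapped. For Nr1d1 the 3 m12_CD libraries lay above the w12_CD libraries, with a log2 fold change of 0.41 (95% interval -0.18 to 0.999, edgeR adjusted p = 0.557). Over all genes 68 genes passed, against 24 without the second w12_CD library, 40 with the compared groups alone and 154 with limma-voom.

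In the diet comparison without VC at 12 weeks, where 0.0238% of all genes passed, 0 of the 6 entries passed. 0610040F04Rik averaged 1817 ± 86.1 CPM in w12_WD (n = 2) and 1073 ± 368 CPM in w12_CD livers (n = 3), with a log2 fold change of 0.65 (95% interval -0.05 to 1.35, edgeR adjusted p = 0.885). Per2 averaged 149 ± 5.59 CPM in w12_WD and 122 ± 50.6 CPM in w12_CD livers, with a log2 fold change of 0.25 (95% interval -0.72 to 1.23, edgeR adjusted p = 0.992). Bhlhe40 was at 36.3 and 68.0 CPM in w12_WD and 15.8, 33.1 and 6.60 CPM in w12_CD livers without overlap, with a log2 fold change of 1.36 (95% interval -0.05 to 2.77, edgeR adjusted p = 0.882).

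Whether the diet effect differed between the 2 times was tested with an interaction that was added after the values had been seen, and that uses the same m12_WD libraries again. It passed for 0610040F04Rik, with a difference of -1.94 on the log2 scale (95% interval -2.90 to -0.99, edgeR adjusted p = 0.0156), and for Per2, with -2.30 (95% interval -3.69 to -0.92, edgeR adjusted p = 0.0417). Of all tested genes 6.67% passed and 3.26% passed downward. D930015M05Rik had an interaction of -0.94 (95% interval -1.88 to -0.01, edgeR adjusted p = 0.229). Its interval excludes 0 although its unadjusted p by edgeR was not under 0.05. The call of 0610040F04Rik was lost without the second w12_WD library (edgeR adjusted p = 0.103). That of Per2 was lost in 12 of 20 alternatives, among them DESeq2 (adjusted p = 0.238), median-of-ratios scaling (edgeR adjusted p = 0.113) and leaving out either w12_WD library (0.0997 and 0.145). Over all genes 280 genes passed, against 44 without the second w12_WD library and 145 with DESeq2.

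With VC, no diet or time difference was called for any entry. For diet at 12 months with VC, where 1.81% of all genes passed, Per2 averaged 73.2 ± 53.4 CPM in m12_WD+VC and 61.3 ± 15.2 CPM in m12_CD+VC livers (log2 fold change 0.04, 95% interval -0.96 to 1.05, edgeR adjusted p = 0.988). 0610040F04Rik averaged 831 ± 104 CPM in m12_WD+VC and 1228 ± 754 CPM in m12_CD+VC livers (log2 fold change -0.56, 95% interval -1.22 to 0.09, edgeR adjusted p = 0.447). Both pairs of groups overlapped. Over all genes 76 genes passed, against 2 without the second m12_WD+VC library, 43 with DESeq2 and 159 with limma-voom. For diet at 12 weeks with VC, where 0.524% of all genes passed, the 3 w12_WD+VC libraries of Per2 at 55.8, 54.5 and 54.5 CPM were below the w12_CD+VC libraries at 155, 149.6 and 156 CPM. The log2 fold change was -1.48 (95% interval -2.42 to -0.54, edgeR adjusted p = 0.205), and Per2 passed when only the groups of 12 weeks were fitted (0.0443). Over all genes 22 genes passed, against 0 without the first w12_WD+VC library, 46 without the third w12_WD+VC library, 13 with the compared groups alone and 41 without a filter.

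Over time on control diet with VC, where 6.38% of all genes passed, Per2 averaged 61.3 ± 15.2 CPM in m12_CD+VC and 154 ± 3.56 CPM in w12_CD+VC livers without overlap. The log2 fold change was -1.32 (95% interval -2.24 to -0.39, edgeR adjusted p = 0.0804). It passed when each overlap class was scaled on its own (0.0384) and when those groups were fitted alone (0.0494). Over all genes 268 genes passed, against 52 without the third w12_CD+VC library and 96 with DESeq2. Over time on Western diet with VC, where 0.786% of all genes passed, Per2 overlapped between m12_WD+VC and w12_WD+VC (log2 fold change 0.20, 95% interval -0.80 to 1.21, edgeR adjusted p = 0.951). In that comparison all 3 m12_WD+VC libraries of D930015M05Rik and of 0610040F04Rik lay below the w12_WD+VC libraries, with log2 fold changes of -0.47 and -0.60 (edgeR adjusted p = 0.634 and 0.495). Over all genes 33 genes passed, against 2 without the second m12_WD+VC library and 239 with limma-voom.

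No difference between VC and air was called in the 6 entries. At 12 months on Western diet, where 0.572% of all genes passed, Per2 averaged 73.2 ± 53.4 CPM in m12_WD+VC and 20.7 ± 12.6 CPM in m12_WD livers. The log2 fold change was 1.71 (95% interval 0.69 to 2.74, edgeR adjusted p = 0.172). The second m12_WD+VC library lay inside the m12_WD range and the other 2 above it, and without it the adjusted p was 0.0200. D930015M05Rik averaged 273 ± 42.5 CPM in m12_WD+VC and 159 ± 45.9 CPM in m12_WD livers without overlap (log2 fold change 0.75, 95% interval 0.12 to 1.39, edgeR adjusted p = 0.410). Over all genes 24 genes passed, against 10 without the third m12_WD+VC library and 10 with the groups of the same time alone.

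On control diet at 12 months, where 5.22% of all genes passed, Nr1d1 was at 147, 96.0 and 106 CPM in m12_CD+VC and 184, 185 and 192 CPM in m12_CD livers. All 3 m12_CD+VC libraries lay below the m12_CD libraries, with a log2 fold change of -0.66 (95% interval -1.26 to -0.06, edgeR adjusted p = 0.155). Per2 averaged 61.3 ± 15.2 CPM in m12_CD+VC and 80.6 ± 34.2 CPM in m12_CD livers, which overlapped (log2 fold change -0.38, 95% interval -1.32 to 0.57, edgeR adjusted p = 0.631). Over all genes 219 genes passed, against 0 without the first m12_CD library, 73 with the compared groups alone and 442 with median-of-ratios scaling.

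At 12 weeks edgeR called 0% of all genes for VC on control diet and 0% on Western diet, with 170 and 235 genes at an unadjusted p under 0.05. DESeq2 called 0 genes on each diet, and limma-voom called 0 on control diet and 3 on Western diet. Per2 was at 55.8, 54.5 and 54.5 CPM in w12_WD+VC and 145 and 153 CPM in w12_WD livers, without overlap. Its log2 fold change was -1.40 (95% interval -2.43 to -0.36, edgeR adjusted p = 0.865), and it passed when those groups were fitted alone (0.0444). Bhlhe40 was at 54.2, 31.5 and 59.9 CPM in w12_CD+VC and 15.8, 33.1 and 6.60 CPM in w12_CD livers, which overlapped (log2 fold change 1.45, 95% interval 0.21 to 2.69, edgeR adjusted p = 1).

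The diet by VC interaction at 12 months, where 9.81% of all genes passed, was 2.09 on the log2 scale for Per2 (95% interval 0.70 to 3.49, edgeR adjusted p = 0.0544) and 1.24 for D930015M05Rik (95% interval 0.34 to 2.15, edgeR adjusted p = 0.0745). Neither passed. Per2 passed in 7 of 21 alternatives, with the replicate block (edgeR adjusted p = 0.0419), TMM by overlap class (0.0263), no filter (0.0466), and without the third m12_CD (0.0327), first m12_CD+VC (0.0444), second m12_WD (0.0479) or second m12_WD+VC library (0.0171). D930015M05Rik passed in 2 of 21, with limma-voom (0.0426) and without the third m12_WD library (edgeR adjusted p = 0.0335), and 0610040F04Rik without the third m12_CD+VC library (0.0457). Over all genes 412 genes passed, against 87 without the third m12_WD+VC library, 626 without the third m12_WD library and 232 without a filter. At 12 weeks, where 0.0238% of all genes passed, the interaction was -2.79 for Bhlhe40 (95% interval -4.68 to -0.90, edgeR adjusted p = 0.772) and -1.73 for Per2 (95% interval -3.08 to -0.38, edgeR adjusted p = 0.912). Over the 12 comparisons with 0 entries called by edgeR, an unadjusted p under 0.05 was reached by 2 entries in each of 4, by 1 in each of 4 and by 0 in 4. DESeq2 called 0 entries in each of them, and limma-voom called 0 in each except the 12-month interaction, where it called D930015M05Rik (adjusted p = 0.0426).

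**Figure D3:**
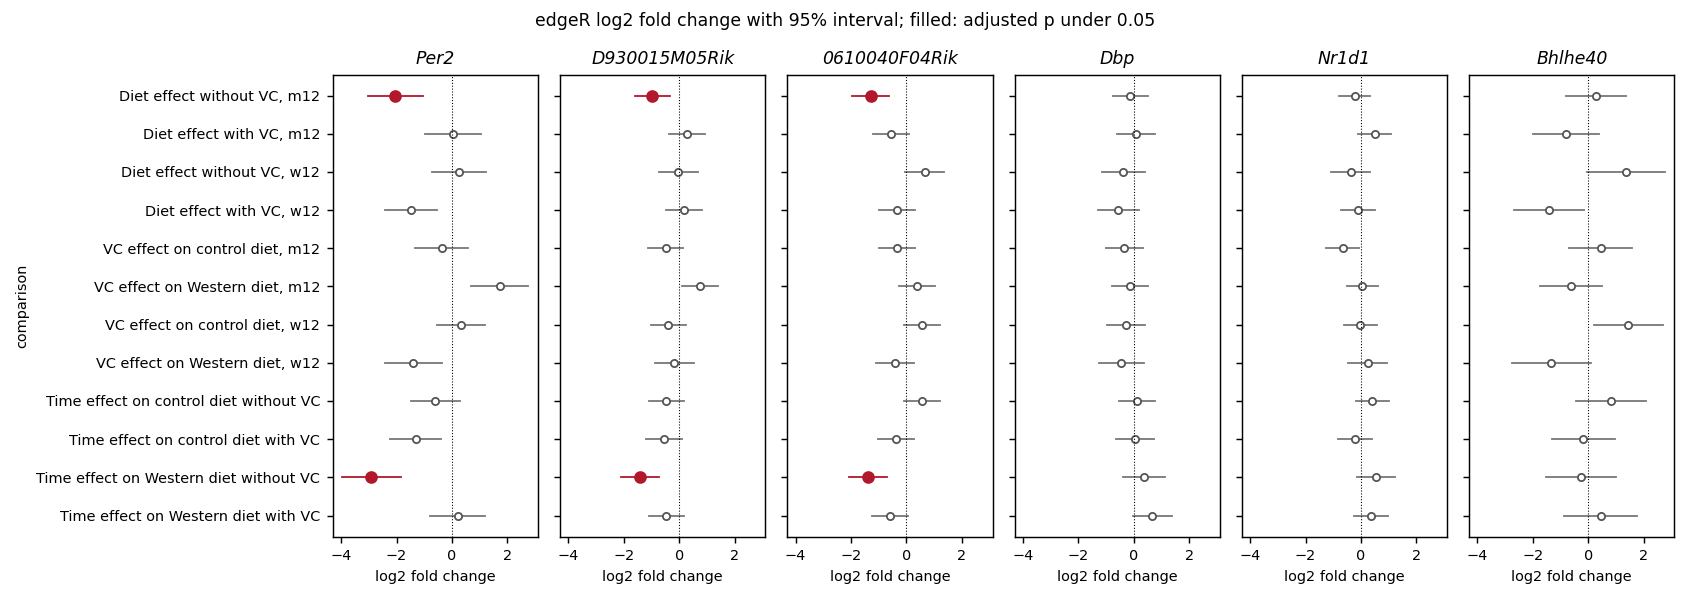
Log2 fold changes of the 6 tested entries in 12 comparisons of 2 groups, with 95% intervals as lines and filled points where the edgeR adjusted p was under 0.05. Filled points stand at diet without VC at 12 months and at time on Western diet without VC, for Per2 (-2.05 and -2.91), D930015M05Rik (-0.98 and -1.40) and 0610040F04Rik (-1.29 and -1.39).

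Dbp and Nr1d1 spanned the smallest ranges of the 6. Dbp was at 59.4, 111 and 150.4 CPM in m12_WD+VC, 115, 139.9 and 116 CPM in m12_WD, 74.7, 88.6 and 150.4 CPM in m12_CD+VC and 127, 119 and 157 CPM in m12_CD livers. At 12 weeks Dbp was at 53.5, 96.5 and 61.3 CPM in w12_WD+VC, 93.3 and 102 CPM in w12_WD, 111, 70.9 and 116 CPM in w12_CD+VC and 111, 158 and 102 CPM in w12_CD livers. Group means of Dbp ran from 70.4 CPM in w12_WD+VC to 134 CPM in m12_CD, and neighbours in that order overlapped.

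Nr1d1 was at 163, 144 and 191 CPM in m12_WD+VC, 153, 147 and 178 CPM in m12_WD, 147, 96.0 and 106 CPM in m12_CD+VC and 184, 185 and 192 CPM in m12_CD livers. At 12 weeks Nr1d1 was at 132, 96.5 and 164 CPM in w12_WD+VC, 88.1 and 144 CPM in w12_WD, 175, 94.5 and 133 CPM in w12_CD+VC and 118, 151 and 152 CPM in w12_CD livers. Its m12_CD libraries had the highest mean and the smallest SD, 187 ± 4.11 CPM in m12_CD, and neighbouring groups by mean overlapped.

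Bhlhe40 was low and scattered, with 271 counts in all. It was at 29.7, 37.4 and 8.21 CPM in m12_WD+VC, 51.0, 41.3 and 28.9 CPM in m12_WD, 49.8, 59.1 and 30.6 CPM in m12_CD+VC and 8.76, 60.9 and 22.4 CPM in m12_CD livers. At 12 weeks it was at 11.2, 37.7 and 6.82 CPM in w12_WD+VC, 36.3 and 68.0 CPM in w12_WD, 54.2, 31.5 and 59.9 CPM in w12_CD+VC and 15.8, 33.1 and 6.60 CPM in w12_CD livers. Neighbouring groups by mean overlapped.

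**Figure D4:**
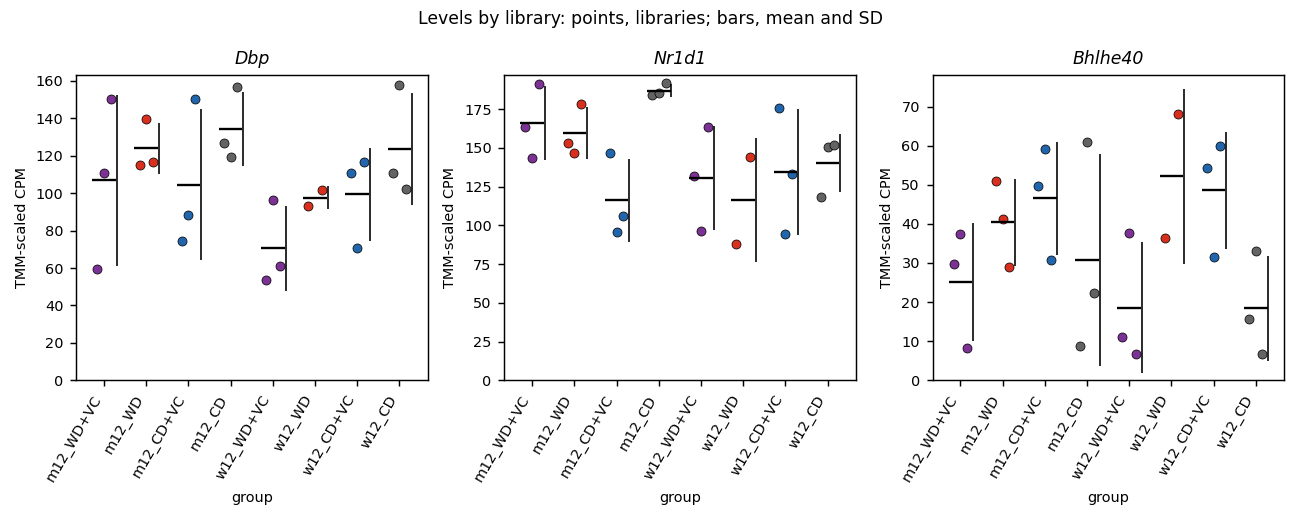
Levels of Dbp, Nr1d1 and Bhlhe40 in TMM-scaled CPM (vertical axis) in the 8 groups (horizontal axis), with points for libraries, horizontal bars for means and vertical bars for SD, n = 3, and n = 2 for w12_WD. Neighbouring groups by mean overlap in each panel, and the m12_CD libraries of Nr1d1, with a mean of 187 CPM, lie closest together.

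The 4 genes below the filter were read as counts, with no test. Arntl, the activator of the loop, had 12 counts in 6 libraries. Its counts were 0, 3 and 0 in m12_WD+VC, 0, 1 and 0 in m12_WD, 2, 0 and 0 in m12_CD+VC, 0, 1 and 0 in m12_CD and 2, 0 and 3 in w12_CD+VC, and it was at 0 in w12_WD+VC, w12_WD and w12_CD. Summed over a group, a count of 0 allows up to 3.60 CPM in w12_WD+VC, 5.96 CPM in w12_WD and 3.62 CPM in w12_CD. Arntl was at or under the floor of 3 counts in every library, and no difference between groups was detectable at this depth.

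Per1, a period gene like Per2, had 37 counts in 14 libraries. Its counts at 12 months were 0, 4 and 0 in m12_WD+VC, 0, 2 and 0 in m12_WD, 1, 0 and 4 in m12_CD+VC and 0, 5 and 2 in m12_CD. At 12 weeks they were 3, 2 and 1 in w12_WD+VC, 3 and 1 in w12_WD, 0, 2 and 0 in w12_CD+VC and 5, 2 and 0 in w12_CD. In counts all groups overlapped, and 6 of them had a library at 0. In CPM, where libraries differ in depth, Per1 was at 0, 5.99 and 0 CPM in m12_WD+VC and 0, 4.59 and 0 CPM in m12_WD, below 6.69, 8.39 and 6.82 CPM in w12_WD+VC and 7.77 and 8.50 CPM in w12_WD. These rest on at most 4 counts a library.

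Ciart, which encodes a repressor of ARNTL and CLOCK, had 24 counts in 13 libraries. Its counts at 12 months were 0, 2 and 2 in m12_WD+VC, 0, 4 and 0 in m12_WD, 1, 1 and 0 in m12_CD+VC and 0, 0 and 0 in m12_CD, where a count of 0 allows up to 3.15 CPM. At 12 weeks they were 2, 3 and 1 in w12_WD+VC, 3 and 0 in w12_WD, 0, 1 and 1 in w12_CD+VC and 1, 2 and 0 in w12_CD. Its highest count was 4, in m12_WD, and all other libraries were at or under the floor.

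Cry2 had 82 counts in 20 libraries. Its counts at 12 months were 2, 9 and 5 in m12_WD+VC, 11, 6 and 2 in m12_WD, 8, 1 and 4 in m12_CD+VC and 2, 10 and 4 in m12_CD. At 12 weeks they were 3, 1 and 0 in w12_WD+VC, 2 and 3 in w12_WD, 2, 0 and 1 in w12_CD+VC and 1, 0 and 5 in w12_CD. Every m12 library had at least 1 count, and 3 of the 11 w12 libraries used for levels had 0.

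**Figure D5:**
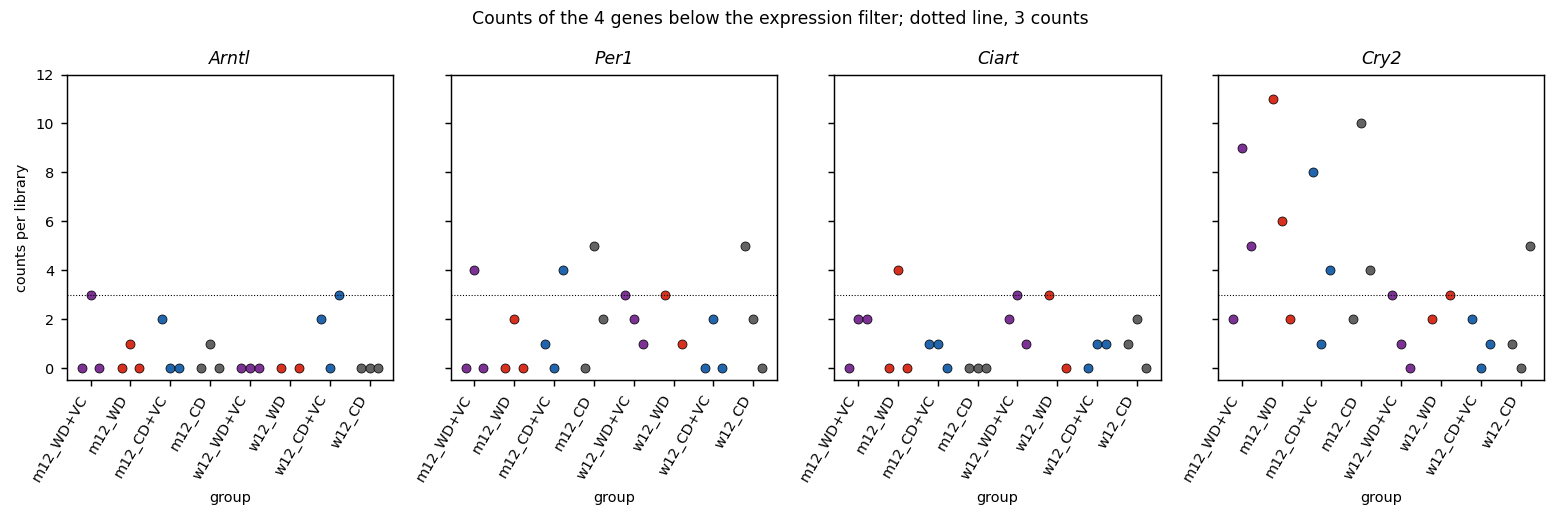
Counts per library (vertical axis) of Arntl, Per1, Ciart and Cry2 in the 8 groups (horizontal axis), with 1 point per library and a dotted line at the floor of 3 counts. Arntl does not exceed 3 and Ciart does not exceed 4, while Cry2 reaches 11 in m12_WD.

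In both opposite-strand pairs the noncoding entry held nearly all counts. Over 23 libraries 0610040F04Rik had 9217 counts and Bhlhe40 271, so that the noncoding entry held 97.1% (95% Wilson interval 96.8% to 97.5%). D930015M05Rik had 2290 counts and Cry2 82, a share of 96.5% (95.7% to 97.2%). Between libraries the first share ranged from 92.5% to 99.6%, and the second from 88.2% to 100%. The intervals pool the reads of all libraries and cover counting error only. In the other pairs Sphk2 held 97.6% of the counts of Sphk2 and Dbp (97.4% to 97.7%), while Thra held 8.87% of the counts of Thra and Nr1d1 (7.44% to 10.5%). Between libraries the share of Sphk2 ranged from 92.0% to 98.8%, and that of Thra from 0% to 20.8%. The clock gene was the minor partner in 3 of these 4 pairs and the major one in the pair with Thra. Sphk2 averaged 4105 ± 637 CPM in m12_WD and 6512 ± 634 CPM in m12_CD livers, and Thra averaged 14.7 ± 5.33 CPM in m12_WD and 18.3 ± 19.6 CPM in m12_CD livers.

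Across the 23 libraries, log2 CPM of Bhlhe40 and 0610040F04Rik had Pearson's r = 0.04 (two-sided permutation p = 0.845, adjusted 0.845 over 2 pairs) and Spearman's rho = 0.15 (permutation p = 0.490, adjusted 0.687). For this pair r was 0.12 without the 2 libraries farthest from the median, 0.50 within w12 (permutation p = 0.119, adjusted 0.119) and -0.21 within m12 (permutation p = 0.514, adjusted 0.955). Its rho within w12 was 0.62 (permutation p = 0.0473, adjusted 0.0473) and within m12 -0.15. Cry2 and D930015M05Rik had r = -0.06 (permutation p = 0.770, adjusted 0.845) and rho = -0.09 (permutation p = 0.687, adjusted 0.687), and r = -0.09 without the 2 farthest libraries. Within the 11 w12 libraries their r was 0.82 (permutation p = 0.00287, adjusted 0.00574) and rho 0.78, falling to r = 0.55 without the 2 farthest. Within the 12 m12 libraries r was 0.02 (permutation p = 0.955), so the relation at 12 weeks did not hold at 12 months. Cry2 had at most 5 counts in any w12 library.

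Arntl was set against the 6 tested entries in the same libraries, 6 relations in all. The highest was with Bhlhe40, with r = 0.47 (permutation p = 0.0195, adjusted 0.117) and rho = 0.55 (permutation p = 0.00580, adjusted 0.0348). It was r = 0.39 without the 2 farthest libraries, 0.50 within w12 and 0.44 within m12. The other 5 had r from -0.21 to 0.14, each with an adjusted permutation p of 0.779. The rho did not pass with median-of-ratios scaling (0.51, adjusted permutation p = 0.0820) or with plain CPM (0.51, adjusted permutation p = 0.0758). Arntl was at 0 in 18 of 24 libraries and above 3 counts in none.

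As a description with no test, D930015M05Rik and 0610040F04Rik had r = 0.63 over the 23 libraries, the highest of the 15 pairs of tested entries, and 0.42 after group means were removed. Per2 had r = 0.50 with D930015M05Rik and 0.41 with 0610040F04Rik, but -0.23 and -0.35 after group means were removed. Dbp and Nr1d1 had r = 0.28. The points share libraries and their depth. The tested genes most like Dbp over the 23 libraries were Med26 (r = 0.74), Rnf20 (r = 0.71), Mir6385 (r = 0.64), Dalrd3 (r = 0.61) and Ccdc125 (r = 0.61). No such list was made for Arntl, which was not tested.

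Of 20 other core clock genes, all in the table, 5 passed the expression filter. For diet without VC at 12 months 1 of these rose and 1 fell, with a median log2 fold change of 0.47. In that comparison 24.5% of all tested genes passed. Timeless, a replication fork protein whose fly relative acts in the clock, was at 206 ± 94.5 CPM in m12_WD and 403 ± 115 CPM in m12_CD livers (log2 fold change -0.94, edgeR adjusted p = 0.0270). Over time on Western diet without VC, Timeless was at 206 ± 94.5 CPM in m12_WD and 424 ± 107 CPM in w12_WD livers (log2 fold change -0.99, edgeR adjusted p = 0.0478). Its exons are overlapped from the opposite strand. Clock (63 counts in all), Npas2 (7) and Cry1 (5), the period gene Per3 (73) and the repressor gene Nr1d2 (56) were not tested.

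Among 16 genes listed as rhythmic outputs of the liver clock, 9 were tested, with 2 higher and 0 lower for diet without VC at 12 months and a median log2 fold change of 0.63. Of all tested genes 24.5% passed in this comparison, so the count is near the background and is no result about the list. Por, which encodes the electron donor of microsomal P450 enzymes, was at 219 ± 99.0 CPM in m12_WD and 63.2 ± 45.5 CPM in m12_CD livers (log2 fold change 1.74, edgeR adjusted p = 0.0154). Alas1, which encodes the first enzyme of haem synthesis, was at 207 ± 52.9 CPM in m12_WD and 77.3 ± 50.7 CPM in m12_CD livers (log2 fold change 1.39, edgeR adjusted p = 0.0282).

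Lists that follow feeding state and hormones were read for the same comparison. Of 7 tested fasting-induced genes 3 were higher and 0 lower, with a median log2 fold change of 1.33. Of all 4198 tested genes 24.5% passed in this comparison, and 562 passed upward. The list as a whole was not tested. Cpt1a, which carries fatty acids into mitochondria, was at 149 ± 27.7 CPM in m12_WD and 55.3 ± 31.0 CPM in m12_CD livers (log2 fold change 1.38, edgeR adjusted p = 0.0111), and the fatty acid hydroxylase gene Cyp4a14 was at 131 ± 125 CPM in m12_WD and 31.6 ± 19.9 CPM in m12_CD livers (log2 fold change 1.95, edgeR adjusted p = 0.0305). Of 8 tested feeding-induced genes, 3 glucocorticoid-induced and 3 immediate early genes, 0 passed by edgeR, with median log2 fold changes of -0.64, -0.03 and 1.54 in that order. The part of feeding state in the values of the clock entries was not tested.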

How the data were processed

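Whole-number read counts per gene in 24 liver libraries were used as the authors deposited them in 1 table. The deposited log2 values per library equal log2 of the size-factor-scaled count plus 1, with 0 values off by over 1e-06, and served only to check the table. Reads were processed with Trimmomatic 0.38, HISAT2 2.1.0 and HTSeq 0.11.2 on mm10, per the submitters' processing notes. No source used here names the annotation or the strand setting. Genes were placed on GENCODE M21 by symbol or synonym.

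Groups follow the labels. All 8 groups were fitted together with edgeR 4.0.16 (R 4.3.3; TMM, filterByExpr with a minimum count of 10 and total of 15, quasi-likelihood test, Benjamini-Hochberg adjustment over 4198 genes, threshold 0.05). Intervals are 1.96 standard errors, a normal approximation that is narrower than the quasi-likelihood test itself would give. Correlations used log2 CPM with a prior count of 2, and their permutation p-values 100000 permutations in numpy 2.4.6. Ranks and Wilson intervals came from scipy 1.17.1. Fits were tested on simulated data. Alternatives were median-of-ratios (RLE) scaling, TMM within each overlap class, no filter, DESeq2 1.42.0, limma-voom (limma 3.58.1), fewer groups, a replicate block and leaving out each library. Leaving out the shallowest library was a further alternative. It is the same fit as leaving out the third w12_WD library, and both are counted where w12_WD was compared. Replicates differed beyond counting noise in all 22 pairs, with chi-square values of 2.41 to 10.6 per degree. The 10 entries and all lists were chosen with earlier results of these data known, and the diet by time interaction was added after seeing the values. Named besides the 10 are their overlap partners, up to 4 called genes per list and comparison with the smallest adjusted p, and the 5 genes most like Dbp. Values of some genes that this rule names are not reported here.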

Additional observations from a re-analysis of the deposited data

Results flagged for a closer look

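The effect of Western diet without VC differed between 12 months and 12 weeks for 2 entries, by edgeR's test of the difference itself, a comparison added after the values had been seen. For 0610040F04Rik the interaction was -1.94 on the log2 scale, with means of 641 CPM in m12_WD and 1569 CPM in m12_CD livers, and 1817 CPM in w12_WD and 1073 CPM in w12_CD livers. For Per2 it was -2.30, with means of 20.7 CPM in m12_WD and 80.6 CPM in m12_CD livers, and 149 CPM in w12_WD and 122 CPM in w12_CD livers. The w12_WD means rest on 2 libraries. The call of Per2 was lost in 12 of 20 alternatives, among them DESeq2 (adjusted p = 0.238), RLE scaling (edgeR adjusted p = 0.113) and limma-voom (adjusted p = 0.118). That of 0610040F04Rik was lost without the second w12_WD library (edgeR adjusted p = 0.103).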

How the results depend on the processing

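Of 96 results for single entries, the 11 called ones kept their call in 196 of 220 alternatives and lost it in 24, with 0 reversed, and 17 of 1387 alternatives gave an uncalled one a call. For diet without VC at 12 months, D930015M05Rik alone lost its call with RLE scaling and without a filter. The same held without the first m12_CD, the first m12_WD or the second m12_WD library. The number of entries called was 3 for diet without VC at 12 months and 1 with DESeq2. It was 0 and became 1 for diet with VC at 12 weeks with the groups of that time only, for VC on Western diet at 12 weeks with the compared groups only, and for time on control diet with VC with TMM by overlap class and with the compared groups only. For the diet by VC interaction at 12 months it was 0 and became 1 with TMM by overlap class, no filter, limma-voom and the replicate block. For the diet by time interaction it was 2, and 1 with RLE scaling, DESeq2 and the compared groups only. Leaving out single libraries gave 1 to 3 for time on Western diet without VC, 0 to 1 for VC on Western diet and the diet by VC interaction at 12 months, and 0 to 2 for the diet by time interaction. The replicate block changed no other count of entries. Replicate numbers showed no sign of pairing the libraries. Same-numbered libraries had a median correlation of 0.0070 over 77 pairs, against 0.0073 over 154 differently numbered pairs. With so few libraries in a group, this check cannot exclude a pairing, least of all in a few genes. The correlation of Cry2 with D930015M05Rik was -0.06 over all libraries and 0.82 within w12. Over all genes, the calls for diet without VC at 12 months were 1028, with 610 for the compared groups only and 654 with DESeq2, those for time on Western diet without VC were 613, with 351 with DESeq2 and 176 without the second w12_WD library, and those for the diet by time interaction were 280, with 145 with DESeq2 and 44 without that library. The causes were not tested. Counts of 37 or fewer limit Arntl, Per1 and Ciart at this depth. Counts over all genes moved more. For VC on control diet at 12 months edgeR called 219 genes, 442 with RLE scaling, 73 with the compared groups alone and 0 without the first m12_CD library. For the diet by VC interaction at 12 months it called 412, 232 without a filter, and from 87 without the third m12_WD+VC library to 626 without the third m12_WD library. For time on control diet with VC it called 268, against 96 by DESeq2 and 52 without the third w12_CD+VC library. For diet with VC at 12 months it called 76, against 43 by DESeq2, 159 by limma-voom and 2 without the second m12_WD+VC library.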
